A study of Mus musculus with 68 samples.

Results

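The brains of wild type (WT) mice were followed from 4 to 18 wks of age. The 12 arrays analysed, of 68 in the series, were all those of WT cerebella and cerebra at 4, 12 and 18 wks. The series profiled brain RNA of prosaposin-deficient mice and of WT controls on Affymetrix Mouse Genome 430 2.0 arrays. WT mice were of the FVB strain, carried no mutation or treatment, and have no sex given in the labels or methods. Each array was hybridized with RNA pooled from 3 mice, with 2 pools for each region and age, so that 4 pools stood for each age. PS-NA mice, used below for the same comparison in other animals, are prosaposin-null FVB mice with a prosaposin transgene, which gives a reduced level of the protein. They develop neurological disease slowly and were pooled in the same way. The methods describe 6 mice for each genotype and time, so cerebella and cerebra of 1 replicate number may come from the same mice. The tests treated the 4 pools of an age as independent. Their p-values rest on the spread between pools of 3 mice, which in the main fit includes any difference between regions in the change with age. This spread was moderated toward that of other probe sets of like signal. If regions share mice, each age has only 2 sets of mice.

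At 4 wks the brain of a mouse has nearly its adult shape, but its white matter is still being laid down. Oligodendrocytes, which arise from dividing precursors, wrap axons in a membrane rich in cholesterol and galactolipids, and brain cells make this cholesterol themselves because plasma lipoproteins hardly cross the blood-brain barrier. In the same period blood vessels stop growing and lay down a mature basement membrane, late-born neurons finish their differentiation, and perineuronal nets and synapses mature.

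Signals are linear values of the array software, and all tests were made on log2(signal + 16) after quantile normalization. Median signals of the 12 arrays were 314.6 to 387.0 and the correlation of the 2 pools of a group was 0.945 to 0.960. The 3′ to 5′ signal ratio of the GAPDH control probe sets, a measure of RNA quality, was 0.814 to 0.828 at 4 wks. It was 0.766 to 0.858 at 12 wks and 0.846 to 0.902 at 18 wks, above every pool of 4 wks. The actin ratio was 1.46 to 1.81 at 4 wks and 1.41 to 1.65 at 18 wks. The part of the GAPDH ratio in the age comparison was not tested. The regions matched their labels. Gabra6, a GABA receptor subunit of cerebellar granule cells, was at 43054 to 51109 in cerebella and 50.6 to 598 in cerebra, and Neurod6, a transcription factor of cortical excitatory neurons, was at 2279 to 4457 in cerebra and 119.5 to 201 in cerebella. The highest cerebral value of Gabra6 came from replicate 1 at 18 wks, which also had 1853 for the Purkinje cell gene Pcp2 against 176 to 483 in the other cerebra. The sum of 11 blood cell genes was 30067 in cerebellar replicate 2 at 12 wks and 6808 to 14254 in the other pools.

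The pools differed in X- and Y-linked transcripts. Xist, the RNA that coats the inactive X chromosome of females, had a signal of 3533 and 4003 in replicate 1 of cerebella and cerebra at 4 wks, and of 219 and 435 in replicate 2. Cerebella had 1315 and 1462 at 12 wks and 6759.9 and 5089 at 18 wks, and the cerebral values were 2637 and 3972, then 7409.9 and 5491. Thus Xist was lowest in both replicate 2 pools of 4 wks and highest in the 4 pools of 18 wks, and the Y-linked gene Eif2s3y was highest in those same replicate 2 pools, at 1071 and 1283, and lowest in replicate 1 of cerebra at 18 wks, at 103. Counts of genes and of list members between 4 and 18 wks in WT brain are therefore also given without both replicate 2 pools of 4 wks, and a list with no such count had no member that passed in that fit. Leaving these pools out does not balance the ages in Xist. Its log2 change from 4 to 18 wks was 2.58 with all pools and still 0.71 without them. The remaining pools of 4 wks lay below every pool of 18 wks. A gene that passed without these pools is thus not shown to be free of a difference in sex. The part of sex in the age comparison was not tested in any other way than by these alternatives.

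**Figure D1:**
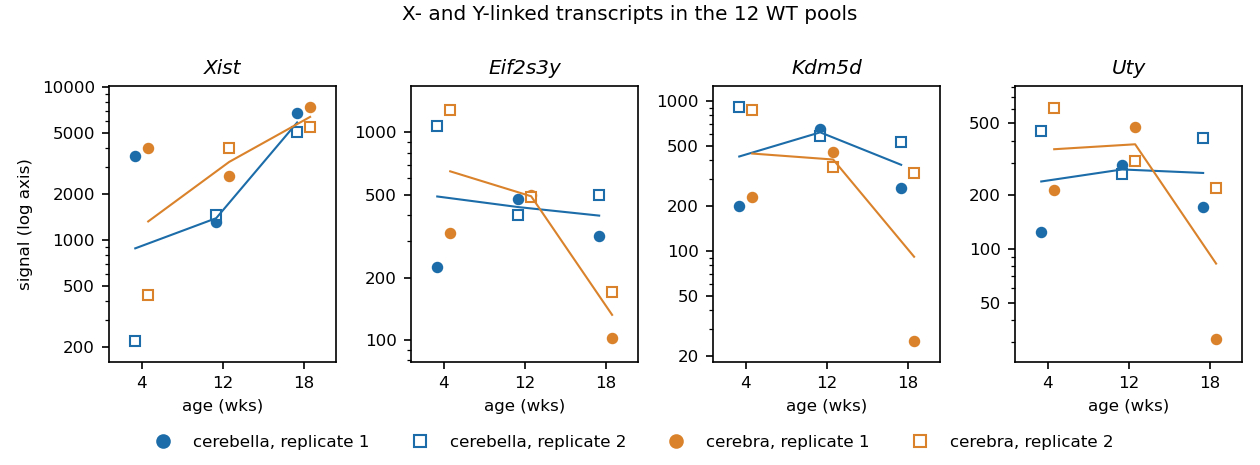
Signals of Xist and of the Y-linked genes Eif2s3y, Kdm5d and Uty in each WT pool against age in wks, on log axes. Circles are replicate 1, squares replicate 2, blue cerebella and orange cerebra, and lines join the means of the log2 signals. Replicate 2 at 4 wks had Xist at 219 and 435 and the highest Eif2s3y in both regions.

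Of 45037 probe sets, 3322 (7.38%) differed between 4 and 18 wks at an adjusted p under 0.05 by limma with Benjamini-Hochberg adjustment, 1943 of them higher (4.31% of all) and 1379 lower (3.06%) at 18 wks. With arrays centred on their medians in place of quantile normalization, 2080 were higher and 841 lower, so the split between directions depends on the scaling. Leaving out 1 pool at a time gave 1692 to 3528 probe sets. The count moved over 1.5 times without replicate 2 of cerebella at 4 wks (2096), replicate 1 of cerebella at 18 wks (2048), replicate 1 or 2 of cerebra at 4 wks (2021 and 1817) and replicate 2 of cerebra at 18 wks (1692). When each gene was represented by its brightest probe set, the one with the highest mean log2 signal, 1167 of 18193 genes (6.41%) passed. Of these, 537 (2.95% of all genes) rose and 630 (3.46%) fell. The 4 and 18 wks pools did not overlap in either region for 1634 genes that were higher (8.98%) and 1864 that were lower (10.2%) at 18 wks. All 1167 genes that passed had the same sign in both regions, and 1090 had no overlap of pools in either region. Over all 18193 genes these counts were 11073 and 3498. A test blocked by region favours genes whose regions agree, so this agreement follows in part from the selection. Without both replicate 2 pools of 4 wks, all 1167 kept their sign, 188 of them passed, and 199 genes passed in all. That fit reuses every other pool, so the kept signs are no independent support. When the Xist level was entered as a covariate, 92 of the 1167 passed and 1166 kept their sign. With the actin 3′ to 5′ ratio as a covariate, 335 of the 1167 passed and all kept their sign. Probe sets of 1 gene often differed. Of the 1167 genes, 717 have over 1 probe set, and for 149 of these the mean over all probe sets also passed in the same direction. Of 140 genes named below that passed, 80 have over 1 probe set, and the 55 of these whose mean did not pass are named with their groups. The means had a limma fit and an adjustment of their own. In it C1qa, Myrf, Crh, Gpc5 and Sgk1, with 1 probe set each and the same log2 change, did not pass either (adjusted p = 0.0541 to 0.0705). A mean that just missed the threshold, such as that of Opalin (adjusted p = 0.0507), thus need not reflect probe sets that differ.

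The course was divided at 12 wks. Between 4 and 12 wks 962 genes (5.29%) passed, 478 higher (2.63%) and 484 lower (2.66%). Between 12 and 18 wks 25 genes (0.137%) passed, 12 higher and 13 lower. Both counts moved widely. Leaving out 1 pool gave 291 to 1520 genes for the first interval and 2 to 328 for the second. The lowest counts came without replicate 1 of cerebella and of cerebra at 12 wks, respectively, and both highest counts without replicate 2 of cerebra at 12 wks. Without both replicate 2 pools of 4 wks 75 and 6 genes passed. For 954 of the 1167 genes the mean at 12 wks lay between those of 4 and 18 wks, for 181 it lay beyond the 18 wks mean and for 32 on the other side of the 4 wks mean. Over all 18193 genes these counts were 6884, 6483 and 4826. Genes chosen for a large change from 4 to 18 wks more often have a 12 wks mean in between, so this course follows in part from the selection. The median ratio of the log2 change at 12 wks to that at 18 wks was 0.645 for the 1167 genes and 0.649 over all genes. Most of all genes did not pass, so their ratios are not shares of a shown change. Both changes in a ratio also use the same pools of 4 wks. The match of the 2 medians is therefore no result about the 1167 genes. Of the 1167 genes, 385 also passed in the same direction between 4 and 12 wks and 11 between 12 and 18 wks. Over all genes, 934 and 24 passed in these intervals with the sign of their change from 4 to 18 wks. Each interval shares the pools of 4 or of 18 wks with the whole comparison, so these calls are no independent support.

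List counts between 4 and 18 wks, here and below, stand beside 2.95% of all genes that rose and 3.46% that fell. A list with 1 gene that passed is near these shares, so its result is about that gene only. Of 25 measured genes of the myelin list, 8 fell and 1 rose, with a median log2 change of -0.21 against -0.03 over all genes. Without both replicate 2 pools of 4 wks 7 fell and 0 rose. The list did not move as a whole, since 11 of 25 genes were above 0 and the median was -0.17 in cerebella and 0.17 in cerebra. Ugt8a, the enzyme that makes the galactolipid of myelin, had signals of 23302 and 21275 in cerebella at 4 wks, 6405.7 and 6406.3 at 12 wks, and 5095 and 7244 at 18 wks. In cerebra it was at 22762 and 24244, then 7259 and 9756, then 5203 and 7513. Every 12 and 18 wks pool was thus below every 4 wks pool. The log2 change from 4 to 18 wks was -1.89 ± 0.15 (SE, 4 pools an age; adjusted p = 9.4e-06), a 3.70-fold decrease. Its second probe set, with a mean signal of 1888, changed by -0.60 and did not pass (adjusted p = 0.11). Because these are whole tissue samples, fewer cells of a type and less RNA per cell cannot be told apart.

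Cldn11, the claudin of the tight junctions between myelin layers, was at 13524 and 11102 in cerebella at 4 wks, 7017 and 7249.8 at 12 wks, and 3378 and 4417 at 18 wks. The cerebral pools had 14515 and 13916, 9332 and 9264, and 5118 and 5888. It fell in both intervals without overlap of pools, by 1.54 ± 0.12 in all on the log2 scale (adjusted p = 8.82e-06). Between 12 and 18 wks it fell by 0.84 (adjusted p = 0.0124) and was the only gene of the myelin list that passed with a fall. Ugt8a, Mog and Opalin changed by -0.25, -0.28 and -0.53 in that interval and did not pass. Mog, a glycoprotein of the outermost myelin layer, was at 13369, 9437, 9762 and 9549 in the 4 pools of 4 wks and at 3784, 3760.4, 4511 and 4877 in those of 18 wks. The corresponding log2 change was -1.32 ± 0.14 (adjusted p = 0.000118).

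Opalin, an oligodendrocyte membrane protein, fell by 1.56 ± 0.25, Tspan2, a tetraspanin of maturing oligodendrocytes, by 1.21 ± 0.13, and Mal, a proteolipid of myelin membranes, by 1.18 ± 0.15 on the log2 scale. Aspa, which cleaves N-acetylaspartate in oligodendrocytes, fell by 0.78 ± 0.17 and Mobp, a basic protein of compact myelin, by 0.74 ± 0.12. The mean over both probe sets of Opalin was -0.99 (adjusted p = 0.0507). Mbp, the main basic protein that compacts the sheath, had signals of 77729 to 105210 at 4 wks and 73451 to 83823 at 18 wks, and its log2 change of -0.10 ± 0.09 did not pass (adjusted p = 0.547). Myrf, the transcription factor that turns on myelin genes, rose by 1.16 ± 0.31 (adjusted p = 0.0317), from 1007 and 1405 to 3345 and 4813 in cerebra. In cerebella replicate 1 at 4 wks had 4221 and replicate 2 had 1376, so the 4 and 18 wks pools overlapped there, and Myrf did not pass without both replicate 2 pools.

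**Figure D2:**
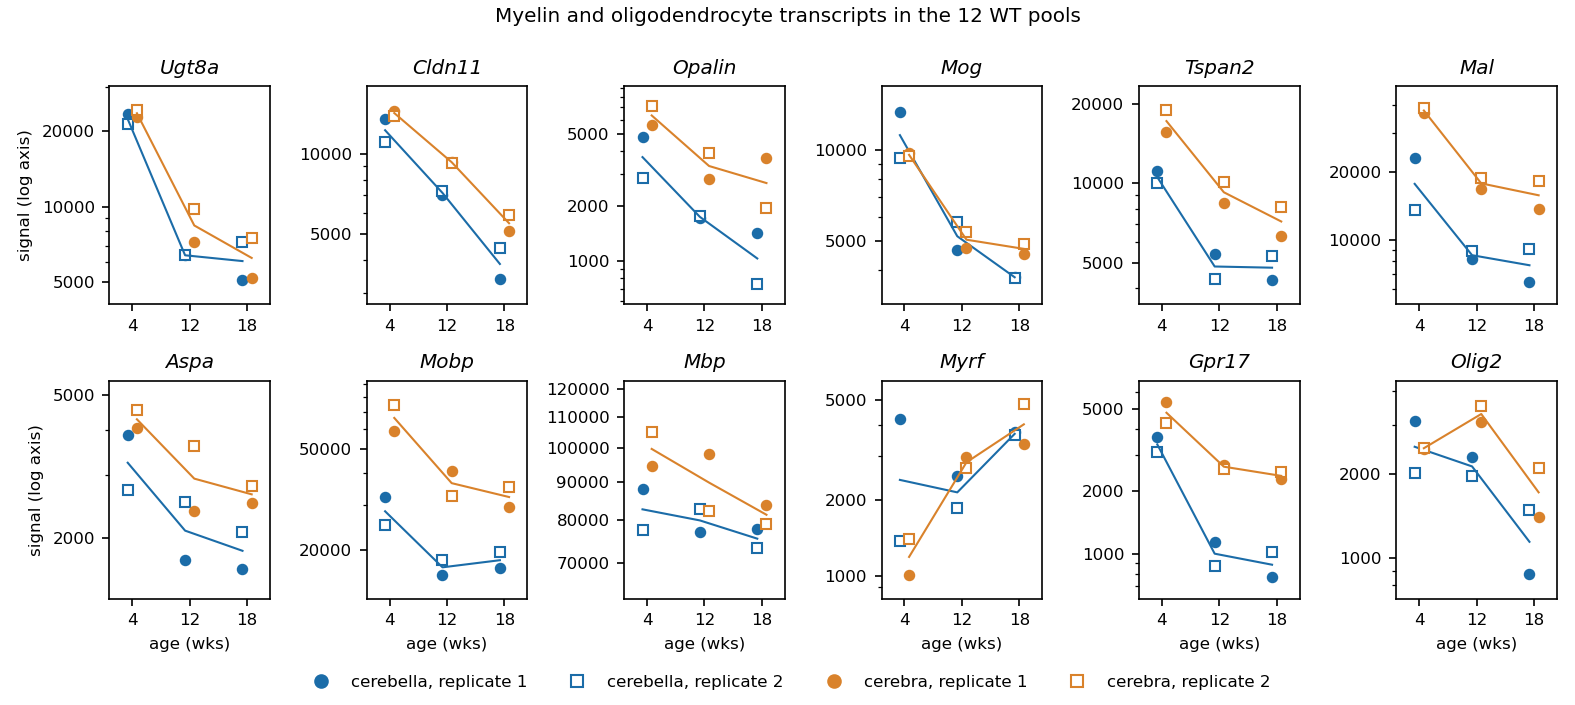
Signals of 12 myelin and oligodendrocyte genes in each WT pool against age in wks, on log axes, with circles for replicate 1, squares for replicate 2, blue for cerebella, orange for cerebra and lines through the means of the log2 signals. Ugt8a fell from 21275 to 24244 at 4 wks to 5095 to 7513 at 18 wks, Mbp lay within 73451 to 105210, and Myrf was higher in both cerebral pools of 18 wks.

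Of 21 measured genes of oligodendrocyte precursors 5 fell and 0 rose, and the list median was -0.06. Gpr17, a receptor of precursors that are about to differentiate, was at 3639.8 and 3109 in cerebella at 4 wks, 1140.4 and 875 at 12 wks and 767 and 1018.5 at 18 wks. In cerebra it was at 5387 and 4248, 2685 and 2570.0, and 2279 and 2468.5. The later pools all lay below the 4 wks pools of their region, and the log2 change was -1.49 ± 0.19 (adjusted p = 0.000418). Olig2 and Sox6, transcription factors of the lineage, fell by 0.88 ± 0.20 and 0.77 ± 0.16, Fyn, a kinase that signals from axon contact to myelin proteins, fell by 0.48 ± 0.12 and Lims2, an adaptor of integrin adhesions, by 0.58 ± 0.16. Pdgfra, the growth factor receptor that defines dividing precursors, was at 1768 to 3899 at 4 wks and 1600.5 to 4660.3 at 18 wks (log2 change -0.06 ± 0.14, adjusted p = 0.859). The mean over the 4 probe sets of Sox6 was -0.09 and did not pass. Gpr17 was the only gene of this list to pass without both replicate 2 pools of 4 wks.

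Of 20 measured genes of cholesterol synthesis 9 fell and 0 rose, with a list median of -0.51, and 12 fell and 0 rose between 4 and 12 wks (2.66% of all genes fell in that interval). Without both replicate 2 pools of 4 wks 5 fell. Hmgcs1, which makes the HMG-CoA that is committed to the pathway, had signals of 32625 and 25940 in cerebella at 4 wks, 9775 and 10757 at 12 wks, and 15068 and 14977 at 18 wks. Cerebra had 40421 and 40649, 19439 and 24632, and 22487 and 23659. In both regions its lowest pool was one of 12 wks, and in neither did a later pool reach a 4 wks pool. The log2 change to 18 wks was -0.82 ± 0.14 (adjusted p = 0.00309).

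Idi1, which isomerizes the isoprenoid unit of the pathway, was at 5065, 5232, 8323 and 9377 in the 4 pools of 4 wks and at 2678, 3520.1, 2426 and 3375 in those of 18 wks. Its log2 change was -1.19 ± 0.17 (adjusted p = 0.000658), and its second probe set changed by -1.94. Cyp51, the lanosterol demethylase, was at 7296, 6531, 6440 and 6297 at 4 wks and at 2813, 2829.8, 2943 and 3600.2 at 18 wks. It fell by 1.14 ± 0.13 on the log2 scale (adjusted p = 0.000189), with no overlap between the ages. Sqle, which oxidizes squalene in a rate-limiting step, fell by 0.85 ± 0.13, and the later enzymes Hsd17b7, Nsdhl and Msmo1 fell by 0.80 ± 0.19, 0.70 ± 0.13 and 0.61 ± 0.13. As the mean of all probe sets Hsd17b7 (-0.35) and Msmo1 (-0.53) did not pass.

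Among the regulators, Insig1, which holds the sterol-sensing complex in the endoplasmic reticulum, fell by 0.58 ± 0.13 and Stard4, a carrier of cholesterol between membranes, by 0.54 ± 0.16, and Stard4 did not pass as the mean of its 3 probe sets (-0.37). Srebf2, the transcription factor that drives the pathway, had a log2 change of 0.46 ± 0.25 that did not pass (adjusted p = 0.283). Fdft1, which makes squalene, passed between 4 and 12 wks with -0.76 ± 0.15 but not between 4 and 18 wks with -0.44 ± 0.15 (adjusted p = 0.0923).

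**Figure D3:**
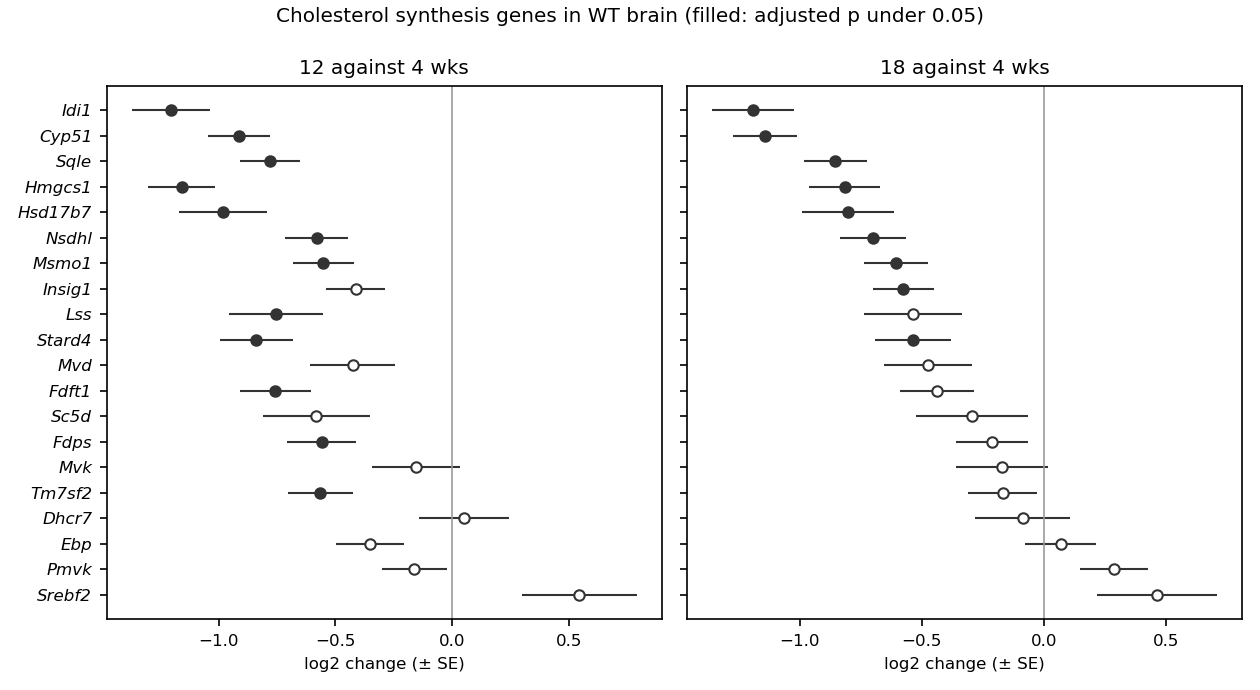
Log2 changes of the 20 measured cholesterol synthesis genes in WT brain from 4 to 12 wks (left) and from 4 to 18 wks (right), with bars of 1 SE and filled points for an adjusted p under 0.05. The filled points, 12 on the left and 9 on the right, all lie below 0.

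The members of this pathway that moved together are shown with their promoters, since many share a motif in the window before their start. Of the 9 genes that fell, 7 have a window in the RefSeq table (GRCm38.p6). Cyp51, Hmgcs1, Hsd17b7, Idi1, Insig1, Msmo1 and Nsdhl do, and Sqle and Stard4 are named only. In the 250 bases before the annotated start, all 7 held ATTGG, the core that the factor NF-Y reads, on either strand. Among 32851 windows of all genes, 33.8% held it, as did 1 window or more of 37.5% of 27025 genes. All 16 measured genes of the list that have a window held it, whether or not they fell. The letters TCACNCCAC, a form of the sterol regulatory element, were found on either strand in the window of Hmgcs1 alone among the 7, and in 1.05% of all windows. A match describes these letters only and is no evidence of a bound factor. The windows of Hmgcs1 (chr13:119690101-119690350, plus strand), Idi1 (chr13:8885356-8885605, plus strand) and Hsd17b7 (chr1:169969206-169969455, minus strand) are given 5′ to 3′ on the strand of the gene, with both motifs, read on either strand, in capitals.
Hmgcs1: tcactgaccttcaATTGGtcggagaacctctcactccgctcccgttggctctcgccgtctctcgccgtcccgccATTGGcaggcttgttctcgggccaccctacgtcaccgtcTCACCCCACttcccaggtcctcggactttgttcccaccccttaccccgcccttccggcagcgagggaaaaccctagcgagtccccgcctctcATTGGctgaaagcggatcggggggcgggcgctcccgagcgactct
Idi1: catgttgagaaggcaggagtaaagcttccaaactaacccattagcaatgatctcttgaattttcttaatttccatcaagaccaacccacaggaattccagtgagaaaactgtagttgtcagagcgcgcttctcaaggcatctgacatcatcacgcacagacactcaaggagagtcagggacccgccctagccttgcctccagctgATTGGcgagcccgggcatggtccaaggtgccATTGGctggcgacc
Hsd17b7: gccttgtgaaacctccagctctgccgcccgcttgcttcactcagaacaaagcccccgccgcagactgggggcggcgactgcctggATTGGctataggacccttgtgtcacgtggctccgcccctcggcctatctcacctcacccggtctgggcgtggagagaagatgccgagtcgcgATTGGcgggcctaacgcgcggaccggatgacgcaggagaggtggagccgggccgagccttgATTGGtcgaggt

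Of 26 immature neuron genes 9 fell and 2 rose (list median -0.28), and 4 fell and 0 rose without both replicate 2 pools of 4 wks. The list is not confined to genes of neurons. It holds Fabp7, a fatty acid binding protein of radial glia and young astrocytes. Fabp7 had signals of 13320 and 23852 in cerebella at 4 wks and 7136 and 8629.6 at 18 wks. In cerebra it was at 17624 and 24815 at 4 wks and at 5279 and 7877 at 18 wks. No pool of 18 wks reached a pool of 4 wks, and the log2 change was -1.43 ± 0.20 (adjusted p = 0.000606).

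Dpysl3, which guides growth cones, fell by 1.08 ± 0.19, Sox11, a factor of newborn neurons, by 1.01 ± 0.17, and Tubb2b, a tubulin of migrating neurons, by 0.95 ± 0.16. For Sox11 the signals were 654 and 632 in cerebella at 4 wks against 291 and 264 at 18 wks, and 3283 and 3091 in cerebra against 1632 and 1987. Both regions had separate pools, and the level in cerebra stayed above that in cerebella at each age. Ptn, a growth factor of the developing brain, fell by 0.66 ± 0.13, the actin-binding Marcksl1 and Marcks by 0.88 ± 0.24 and 0.59 ± 0.13, and Nrep by 0.52 ± 0.12. A second probe set of Ptn, at a mean signal of 8071, was at 0.32, and the means over all probe sets of Ptn (-0.11), Sox11 (-0.50) and Dpysl3 (-0.51) did not pass. Nnat, an imprinted proteolipid, rose by 0.78 ± 0.18 and Ncam1, an adhesion molecule, by 0.53 ± 0.15, although the mean over the 7 probe sets of Ncam1 was -0.05. Sox4 fell by 0.53 ± 0.14 in its brightest probe set, with a mean of 0.02 over all 8.

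In the histone and chromatin list 3 of 20 genes fell and 0 rose (list median -0.36). The DNA methyltransferase Dnmt3a fell by 0.69 ± 0.18, the nucleosome binding protein Hmgn3 by 0.66 ± 0.15 and the deacetylase Hdac1 by 0.63 ± 0.12. The mean over the 5 probe sets of Dnmt3a was -0.06 and did not pass, and no gene of this list passed without both replicate 2 pools of 4 wks. Among 27 cadherins and protocadherins, which hold neurons together during wiring, 4 fell and 0 rose (list median -0.17). Cdh8 was at 1721, 1457, 2884 and 2541 in the pools of 4 wks and 686, 739, 1715 and 1352 in those of 18 wks, a log2 change of -1.02 ± 0.18 (adjusted p = 0.00291). Its other 2 probe sets were at -0.05 and 0.36, and the mean of all 3 was -0.24 (adjusted p = 0.399). Cdh11 and Cdh2 fell by 0.63 ± 0.14 and 0.46 ± 0.12. Pcdh7 fell by 0.95 ± 0.23 in its brightest probe set, while a dimmer one rose by 2.07 (adjusted p = 0.0327). None of these 4 passed as the mean of its probe sets, and Cdh8 and Pcdh7 passed without both replicate 2 pools of 4 wks. Among 20 genes of thyroid hormone and retinoid action (list median 0.25) Cyp26b1, which degrades retinoic acid, fell by 1.02 ± 0.16, with separate pools in both regions, and Nrgn, given with the synaptic genes, rose. Both passed without both replicate 2 pools.

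Of 25 endothelial and pericyte genes 4 fell and 1 rose, with a list median of 0.01 and 13 genes above 0. Aplnr, the apelin receptor of sprouting endothelium, was at 2884 and 3441 in cerebella at 4 wks, 961 and 719 at 12 wks and 807 and 582 at 18 wks. The signals in cerebra were 861 and 1013, 479.9 and 437.5, and 401 and 366. It fell by 1.82 ± 0.21 on the log2 scale (adjusted p = 0.00021) with no overlap in either region. The others to fall were Rgs5, a signalling regulator of pericytes, with -0.85 ± 0.25, Slco1a4, an organic anion carrier of the barrier, with -0.78 ± 0.16, and Itm2a with -0.52 ± 0.11. Slc2a1, the glucose carrier of the barrier, rose by 0.49 ± 0.12. As the mean of all probe sets Rgs5 (-0.43) and Itm2a (-0.25) did not pass. Only Aplnr of these passed without both replicate 2 pools of 4 wks.

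Of 20 basement membrane genes 5 fell and 2 rose (list median -0.23). Of the chains of collagen IV, which forms the network of the membrane, Col4a1 fell by 1.04 ± 0.19, Col4a2 by 0.83 ± 0.21 and Col4a5 by 0.83 ± 0.22. In cerebella and cerebra apart, Col4a1 changed by -1.56 and -0.52, and Col4a2 by -1.38 and -0.27. The list median was -0.33 in cerebella and 0.04 in cerebra, and the difference between regions passed for 0 genes of the list. Nid1, which links collagen IV to laminin, was at 3724 and 3975 in cerebella at 4 wks and 1321 and 1099 at 18 wks, and at 1017 and 908 against 728 and 621 in cerebra. Its pools were separate in both regions, and the log2 change was -1.16 ± 0.21 (adjusted p = 0.00363). Hspg2, the proteoglycan perlecan, fell by 1.31 ± 0.23 in its brighter probe set, while the dimmer one was at 1.45 and did not pass. The laminin chains Lamb1 and Lamb2 rose by 0.86 ± 0.22 and 0.84 ± 0.23. Among 23 genes of collagens and fibroblasts Col3a1 fell by 1.48 ± 0.26 and Fbln1 rose by 0.88 ± 0.22. The means over all probe sets of Nid1 (-0.57), Col4a5 (-0.67), Hspg2 (0.07), Lamb1 (0.30) and Fbln1 (0.51) did not pass. Nid1 and Col4a1 passed without both replicate 2 pools of 4 wks.

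A few immune genes rose. Of 23 genes of complement, MHC and interferon response 4 rose and 0 fell (list median 0.41), and of 26 microglia genes 2 rose and 0 fell (list median 0.17). C1qa, a chain of the first complement component made by microglia, was at 2676 and 2058 in cerebella at 4 wks and 2753 and 2945 at 18 wks. In cerebra it was at 4547 and 4690.5 against 7591 and 8301. Pools were separate in both regions, but closely so in cerebella, and the log2 change was 0.53 ± 0.16 (adjusted p = 0.0462). C1qb rose by 0.57 ± 0.17, B2m, the light chain of MHC class I, by 0.69 ± 0.15, H2-K1 by 0.54 ± 0.16, and the interferon-induced Ifit3 and Ifi27 by 0.76 ± 0.17 and 0.57 ± 0.13. As the mean of all probe sets C1qb (0.23) and B2m (0.52) did not pass, and none of these genes passed without both replicate 2 pools of 4 wks.

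Of 16 choroid plexus and ependyma genes 2 rose and 0 fell (list median 0.20), and both passed without the replicate 2 pools of 4 wks. Kl, which encodes klotho, was at 438 and 759 in cerebella at 4 wks, 1258 and 1532 at 12 wks and 1421 and 2476 at 18 wks. Cerebral signals were 388 and 512, 2001 and 1236, and 979 and 1241. Later pools were above the 4 wks pools in both regions, with a log2 change of 1.51 ± 0.26 (adjusted p = 0.00238), but the mean over its 2 probe sets was 0.93 (adjusted p = 0.0973). Folr1, the folate receptor of the plexus, rose by 0.97 ± 0.24, from 911 and 2111 to 2469 and 3470.2 in cerebella and from 934 and 1021 to 2142 and 1668 in cerebra.

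Among 18 genes of the insulin-like growth factor pathway 3 rose and 0 fell (list median 0.01), all of them binding proteins. Igfbp5 was at 13284, 12251, 8158 and 9030.2 in the pools of 4 wks and 22104, 19120, 17760 and 12272 in those of 18 wks, a log2 change of 0.77 ± 0.14 (adjusted p = 0.00323). Igfbp2 and Igfbp6 rose by 0.69 ± 0.13 and 0.63 ± 0.16, and Igfbp5 alone passed without both replicate 2 pools of 4 wks. Of 22 astrocyte genes 3 rose and 1 fell (list median 0.13). The factor Sox9, the glypican Gpc5 and the secreted Mfge8 rose by 0.78 ± 0.23, 0.71 ± 0.20 and 0.55 ± 0.14, and the gap junction protein Gja1 fell by 0.45 ± 0.10 in its brightest probe set. Another probe set of Gja1, at a mean signal of 6879, rose by 1.98 (adjusted p = 8.02e-06), and the mean over all 6 was -0.19 (adjusted p = 0.491). The mean for Sox9 was 0.35 and did not pass. None of these 4 passed without both replicate 2 pools of 4 wks.

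Genes of mature neurons moved one by one. Of 17 perineuronal net genes 2 rose and 1 fell (list median -0.20). Hapln4, a link protein of the nets around axon segments and synapses, was at 5018 and 4684 in cerebella at 4 wks, 13003 and 8952 at 12 wks and 9532 and 7749 at 18 wks. In cerebra it was at 2521 and 1620.1, 4872 and 4346, and 5387 and 4206. It rose without overlap, by 1.01 ± 0.16 on the log2 scale (adjusted p = 0.0018), and its 12 and 18 wks pools overlapped in both regions. Ptprz1, a phosphatase that binds net components, rose by 0.76 ± 0.13 in its brightest probe set, with -0.24 and -0.18 in the other 2, and the protease Adamts4 fell by 0.58 ± 0.15. The mean for Ptprz1 was 0.11 and did not pass. Without both replicate 2 pools of 4 wks Hapln4 and Ptprz1 passed.

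Of 23 synaptic vesicle genes, Syp, which encodes synaptophysin, rose by 0.67 ± 0.15 and Synpr fell by 0.87 ± 0.17. Syp has a second, dim probe set, at a mean signal of 141, and the mean of both probe sets was -0.23. Nrgn, the postsynaptic calmodulin buffer neurogranin, rose by 0.79 ± 0.17, from 855 and 979 to 1573 and 1777 in cerebella and from 13705 and 19852 to 32120 and 20450 in cerebra. Cntnap1, an axonal protein of the junction beside the node of Ranvier, rose by 1.24 ± 0.32 as the 1 of 20 neurofilament and axon genes to pass. Of 14 Purkinje cell genes Slc1a6, a glutamate carrier, and Ebf1 rose by 0.83 ± 0.19 and 0.94 ± 0.18, and Car8 fell by 0.82 ± 0.24. The means over all probe sets of Ebf1 (-0.05) and Car8 (-0.44) did not pass, and Ebf1 alone of these 3 passed without both replicate 2 pools. When the regions were tested apart, 0 genes of the Purkinje cell list passed in cerebella, while 2 rose and 1 fell in cerebra. These calls are therefore no result about Purkinje cells of the cerebellum.

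Among 23 lysosomal genes 3 rose and 0 fell (list median 0.10). Galc, which degrades the galactolipids of myelin, was at 224, 362, 93.2 and 154 in the pools of 4 wks and 702, 857, 468 and 993 in those of 18 wks. Its log2 change was 2.04 ± 0.38 (adjusted p = 0.00415), while its other 2 probe sets, both dimmer, changed by 0.42 and 0.06. Gla, the α-galactosidase, rose by 1.01 ± 0.26 and the cathepsin Ctsz by 0.39 ± 0.11. The means for Galc (0.84) and Gla (0.50) did not pass, and Galc alone passed without both replicate 2 pools. Pdia4, a folding enzyme of the endoplasmic reticulum, was the 1 of 23 chaperones to rise, from 1310.2, 1263, 1106 and 949 at 4 wks to 3010.3, 3814, 3041 and 2624 at 18 wks (log2 change 1.40 ± 0.22, adjusted p = 0.00127). Every 18 wks pool was above every 4 wks pool, and the gene also passed without both replicate 2 pools. The mean over its 2 probe sets was 0.33 (adjusted p = 0.463).

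No gene passed among 21 glutamate receptors, 18 genes of GABA synthesis and receptors, 21 sodium and calcium channel subunits, 17 ribosomal proteins, 22 immediate early genes and 9 pituitary hormones, whose medians were -0.31 to 0.10. Of 29 cell cycle genes only Ccnd1 fell, by 0.57 ± 0.14. Of 11 blood cell genes 10 were lower at 18 wks (list median -0.81), and Hbb-b2, a β-globin gene, passed with -1.38 ± 0.40, though not as the mean of its 2 probe sets (adjusted p = 0.0939). The part of blood RNA in the other results was not tested.

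In the remaining lists 1 to 3 genes passed, beside 6.41% of all genes. These are given as single genes and not as results about the lists. Among 19 clock genes the repressor Bhlhe40 rose by 0.66 ± 0.14. Nr1d2 fell by 0.65 ± 0.15 in 1 probe set and rose by 1.01 in the other (adjusted p = 0.00501). Of 16 glucocorticoid-responsive genes the kinases Sgk1 and Pdk4 rose by 0.66 ± 0.19 and 0.60 ± 0.17, and Ddit4, an inhibitor of mTOR signalling, fell by 0.58 ± 0.14. Of 21 imprinted genes Nnat, given above, and the zinc finger factor Plagl1 (0.59 ± 0.12) rose, and the cell cycle inhibitor Cdkn1c fell by 0.84 ± 0.24. Crh, which encodes corticotropin-releasing hormone, fell by 1.30 ± 0.36 as the 1 of 19 interneuron genes to pass. Among 25 genes of oxidative phosphorylation Ndufa1 and Cox5a fell by 0.45 ± 0.10 and 0.42 ± 0.10, and Sdhc rose by 0.41 ± 0.11. The means for Cox5a (-0.33) and Sdhc (0.09) did not pass. Ppp1r1b, the signalling protein DARPP-32 of striatal neurons, rose by 0.57 ± 0.14 as the 1 of 21 hippocampal, striatal and cortical genes to pass. Of 17 cerebellar granule cell genes Cadps2, a vesicle-priming protein, fell by 0.44 ± 0.11, and Ppp1r1b, which this list also holds, rose.

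**Figure D4:**
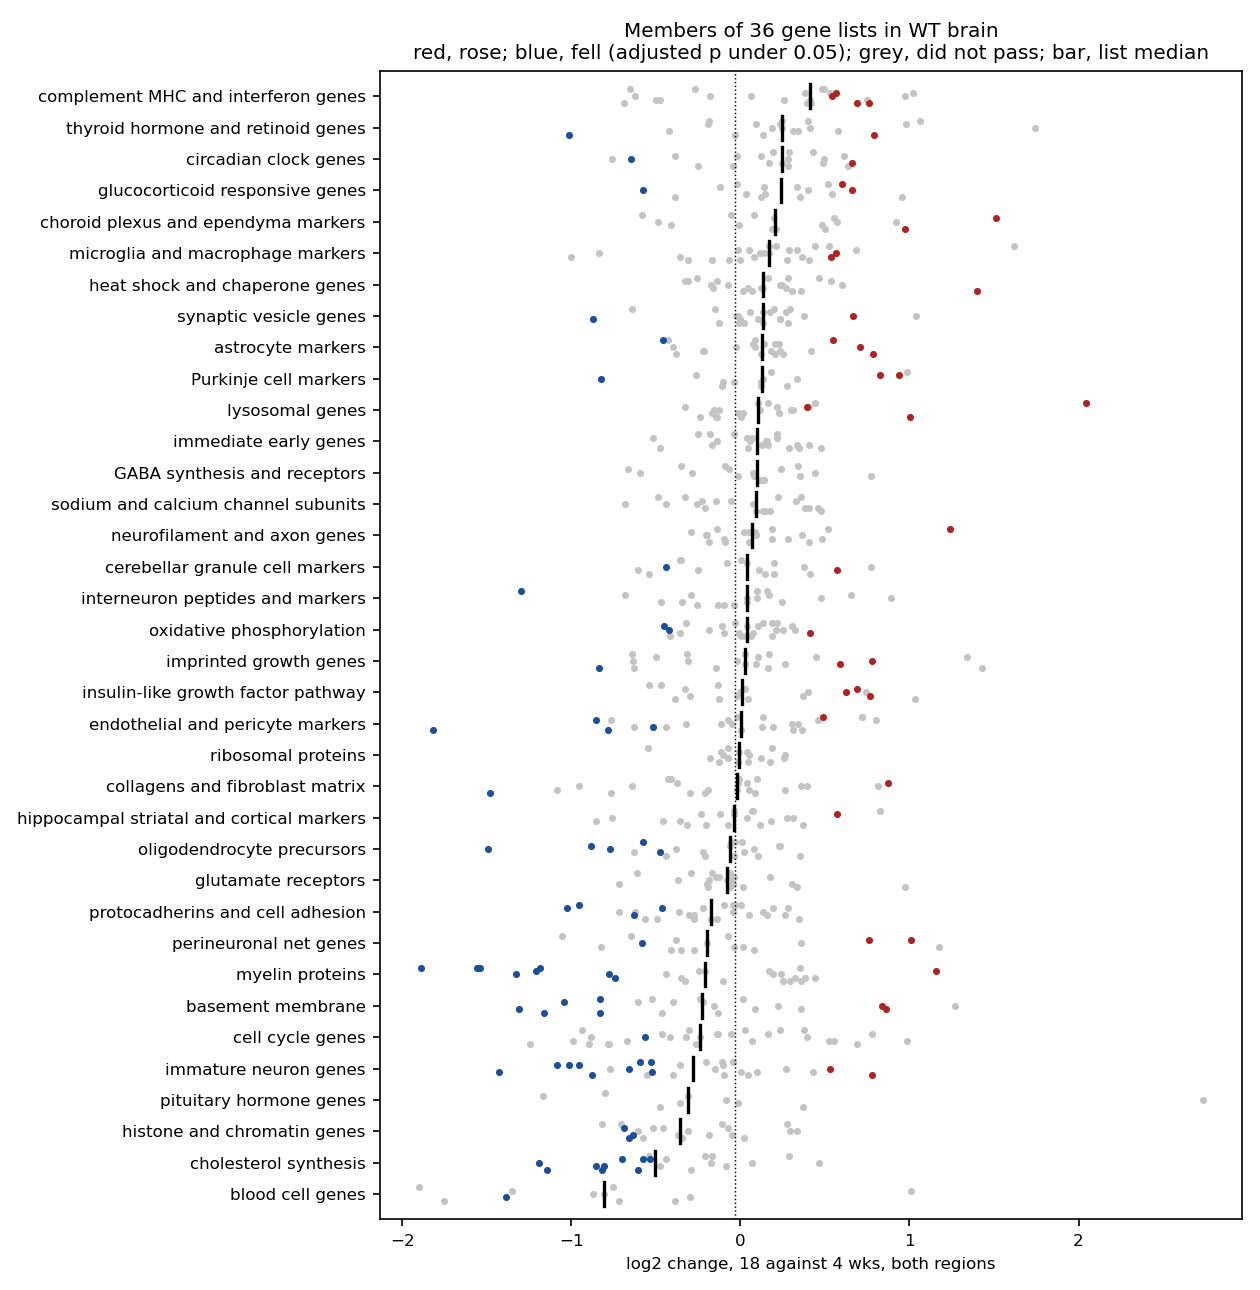
Log2 change from 4 to 18 wks of every measured member of 36 gene lists in WT brain, 1 line per list, ordered by the list median (black bar). Red members rose and blue members fell at an adjusted p under 0.05, grey members did not pass, and the dotted line marks the median of all genes (-0.03). Blue members gather in the cholesterol, myelin and immature neuron lists, where 9, 8 and 9 fell.

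The largest changes were of dim genes. Of the 15 most increased and 15 most decreased genes with separate pools in both regions, 21 had a mean signal under 200, close to the background of the arrays. The increases were Rpe65, Xist, Tnni2, Birc7, Ptafr, Sfn, Fstl4, Tsx, Galr2, Zc3h3, Ccr2, Kcnj2, Maml2, Gsap and Galc, with log2 changes from 2.80 for Rpe65 to 2.04 for Galc. The decreases were Tssk1, Ckap2, Tlr8, Kcnk7, Herc6, Rab7b, Trem1, Cysrt1, B3gnt3, Gata5, Slc6a20b, Dcst1, Cfap221, Nmur2 and Krtap8-1, from -2.51 for Tssk1 to -1.93 for Krtap8-1. Rpe65, the retinoid isomerase of pigment epithelium, was at 27.1, 20.0, 97.3 and 36.6 in the pools of 4 wks and 247, 144, 909.8 and 383 in those of 18 wks. Ccr2 and Herc6 have 3 other probe sets each. The means over all of their probe sets were -0.04 and 0.21, against 2.08 and -2.17 in the brightest. The means of Xist (2.12), Tnni2, Ptafr, Gsap, Rab7b, Trem1, Cysrt1, Gata5 and Slc6a20b kept their sign and did not pass, with the smallest values for Gsap (0.24) and Cysrt1 (-0.62).

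Other bright genes, with mean signals of at least 1000, were chosen after their values were seen. Abca8a, a lipid transporter, was at 604, 430.5, 425 and 578 at 4 wks and 1720.3, 1789, 2138 and 2573 at 18 wks, a log2 change of 2.03 ± 0.22 (adjusted p = 0.000164). Gsn, which encodes the actin-severing gelsolin of oligodendrocytes, was at 41443, 31999, 25010 and 27013 at 4 wks and 10543, 10330, 12530 and 10501 at 18 wks. It fell by 1.51 ± 0.21, and its next 3 probe sets by brightness fell by 1.28, 1.06 and 1.47, while its 2 dimmest did not pass. Spock1, a testican of the matrix, rose by 1.25 ± 0.21 in its brighter probe set and fell by 0.77 in the other (mean signal 3254, adjusted p = 0.00656), so that the mean of both was 0.24 (adjusted p = 0.462). Ncstn, a γ-secretase subunit, rose by 1.102 ± 0.169 and the nuclear RNA Neat1 by 1.36 ± 0.25, while their means over both probe sets, 0.70 and 0.53, did not pass. Mybpc3 fell by 1.67 ± 0.24 and Tmem41b, a lipid scramblase, by 1.33 ± 0.20.

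From 4 to 12 wks the most increased genes that passed were Igkv8-30, Car1, Zc3h3 and Rpe65. Igkv8-30, an antibody light chain segment, was at 9604 in cerebellar replicate 2 of 12 wks, the pool with the highest blood gene sum, at 139.6 to 400.2 in the other 12 wks pools and at 34.9 to 71.6 at 4 wks. Car1, the carbonic anhydrase of red cells, was at 1084 in that pool and 117 to 206 in the other 3. Zc3h3, a zinc finger protein, was at 366 to 955 at 12 wks and 74.7 to 121 at 4 wks. The most decreased were Islr2, Slc23a1, Edn1 and Trem1. Edn1, which encodes endothelin-1, was at 206, 232, 388 and 362 at 4 wks, at 29.0, 28.8, 110.3 and 49.3 at 12 wks, and at 273, 324, 168 and 219 at 18 wks, so that it fell by 2.13 (log2) to 12 wks and the pools of 4 and 18 wks overlapped.

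From 12 to 18 wks the most increased genes were Pik3cd, Rian, Ebf1 and Aif1l and the most decreased Cdkn1b, Cog7, Adi1 and Cpox. Pik3cd, a catalytic subunit of phosphoinositide 3-kinase, was at 2672, 3878, 3206 and 2509 at 12 wks and 13588, 9881, 14938 and 12938 at 18 wks. The pools of 4 wks, at 2537 to 4150, were like those of 12 wks, and the log2 change between 12 and 18 wks was 2.12 (adjusted p = 5.07e-05). This is the brightest of 6 probe sets, and none of the other 5 passed between 4 and 18 wks, for which the mean of all 6 was 0.30. For Aif1l and Cpox, called between 4 and 18 wks too, the means of 0.44 and -0.66 did not pass. Cdkn1b, a cell cycle inhibitor, was at 6315, 8025, 2703 and 2142 at 12 wks and 2339.8, 3529, 776 and 1150.1 at 18 wks. It fell by 1.36 (log2, adjusted p = 0.0346) in this interval, with no overlap in either region. Rian, a maternally expressed RNA, passed in both intervals in opposite directions, with -1.56 and then 1.25, in the probe set with the highest mean log2 signal. From 4 to 18 wks this probe set was at -0.31 and did not pass, while another with a higher linear mean (2911 against 2421.5) fell by 1.36 (adjusted p = 0.0139) and a dimmer one by 1.12 (adjusted p = 0.0428).

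Within regions, 96 genes (0.528%) passed in cerebella and 925 (5.08%) in cerebra, with 2 pools against 2 in each. Leaving out 1 pool gave 9 (replicate 1 of cerebella at 18 wks) to 108 and 43 (replicate 2 of cerebra at 4 wks) to 1109, and without both replicate 2 pools of 4 wks 9 and 14 genes passed. The difference between regions itself was tested and passed for 0 of 45037 probe sets by limma, with 3910 at an unadjusted p under 0.05, so the unequal counts do not show that regions differed. The genes with the smallest p of the difference were Ccn3, Vamp7, C1ql2, Acyp2, Bcap29 and Car8 (adjusted p from 0.127 to 0.264). Ccn3, a matricellular protein of cortical neurons, was at 894 and 1007 in cerebella at 4 wks and 1732 and 1822 at 18 wks, and at 8974 and 6953 against 3976 and 4454 in cerebra. C1ql2, a synapse organizer, was at 449 and 280 against 33.7 and 33.0 in cerebella and at 601 and 502 against 1018.5 and 1375 in cerebra. For both genes the pools of the ages were separate in each region, in opposite directions. The region difference was 1.79 for Ccn3 and -3.85 for C1ql2 on the log2 scale, cerebella minus cerebra.

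The comparison was repeated in the 12 PS-NA arrays, which share no array with WT. Between 4 and 18 wks 113 genes (0.621%) passed, 76 higher and 37 lower. Of the 1167 genes of WT brain, 842 (72.2%) had the same sign in PS-NA brain, against 57.2% of all genes. Of genes with a mean signal of at least 1000 it was 681 of 897 (75.9%), and of those under 200 it was 48 of 102 (47.1%). In all 43 passed in the same direction in both genotypes and 1 in opposite directions. PS-NA pools of 4 wks also differed in Xist, at 3309 and 6286 in replicate 1 and 122 and 124 in replicate 2, but at 18 wks they were at 89.2 to 2597.

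Several myelin and vessel genes fell in both genotypes. Ugt8a was at 19150.2, 27772, 17382 and 20937 in the PS-NA pools of 4 wks and 5156, 8702, 5068 and 6116 in those of 18 wks, with no overlap. The PS-NA log2 change was -1.74 (adjusted p = 0.00287), against -1.89 in WT. Cldn11, Opalin, Mog, Tspan2 and Mal also fell in PS-NA brain, by 1.43, 1.52, 1.49, 1.41 and 1.59, as did Gpr17 by 1.70. The same held for Aplnr (1.46), Nid1 (1.26), Col4a1 (1.24), Col4a2 (1.19) and Col3a1 (1.69), and for Cyp51 (1.25) and Sqle (0.79) of the cholesterol genes. Mobp, Aspa and Tubb2b did not pass in PS-NA brain, with -0.31, -0.40 and 0.18, and the difference from WT did not pass for them either (adjusted p = 0.504, 0.592 and 0.0957). The 12 arrays of 4L/PS-NA mice, which add a glucocerebrosidase mutation and are of mixed strain, had their own fit. There Ugt8a (-1.40), Gpr17, Aplnr, Nid1, Col4a1, Col4a2 and Col3a1 also passed with a fall. Cldn11 (-0.56), Opalin (-0.91), Mog (-0.79), Tspan2 (-0.39), Mal (-0.57), Cyp51 (-0.46) and Sqle (-0.55) did not pass. The 2 cerebellar 4L/PS-NA pools of 4 wks correlated at 0.821.

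The change with age differed between the genotypes for 111 genes (0.61%), 34 with a higher (0.187%) and 77 with a lower (0.423%) change in WT. Over all probe sets the balance was the other way, with 417 (0.926%) that differed, 256 higher (0.568%) and 161 lower (0.357%) in WT. Leaving out 1 pool gave 42 (without WT cerebral replicate 2 of 18 wks) to 167 genes. Without both WT replicate 2 pools of 4 wks 15 passed, and of the genes named for this difference only Mpst did. Of 26 microglia genes, 9 had a lower change in WT and 0 a higher one. C1qa rose in PS-NA brain from 3732, 5076, 6887 and 8207 at 4 wks to 24756, 22461, 19150 and 17498 at 18 wks, a log2 change of 1.85 against 0.53 in WT (difference -1.31, adjusted p = 0.0214). C1qb and Ifit3 differed in the same way, by -1.35 and -1.43. The 4 and 18 wks pools of C1qa were separate in each region of both genotypes.

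Pdia4, Hapln4 and Slc2a1 had a higher change in WT. Pdia4 was at 3881, 3351, 2638 and 2958 in PS-NA pools of 4 wks and 3545, 3257, 1908 and 2529 at 18 wks, a change of -0.22 against 1.40 in WT (difference 1.62, adjusted p = 0.0109). Hapln4 and Slc2a1 had changes of 0.02 and -0.39 in PS-NA brain (differences 0.99 and 0.88). Mpst, a sulfurtransferase chosen after its values were seen, passed in opposite directions. It was at 1492, 1066, 1144 and 1257 in WT pools of 4 wks and 513, 309, 536 and 393 in those of 18 wks. In PS-NA pools it was at 368, 493, 303 and 347 at 4 wks and 1567, 736, 1850 and 839 at 18 wks. The groups overlapped in neither genotype, and the difference of the log2 changes was -3.08 (adjusted p = 0.000704).

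**Figure D5:**
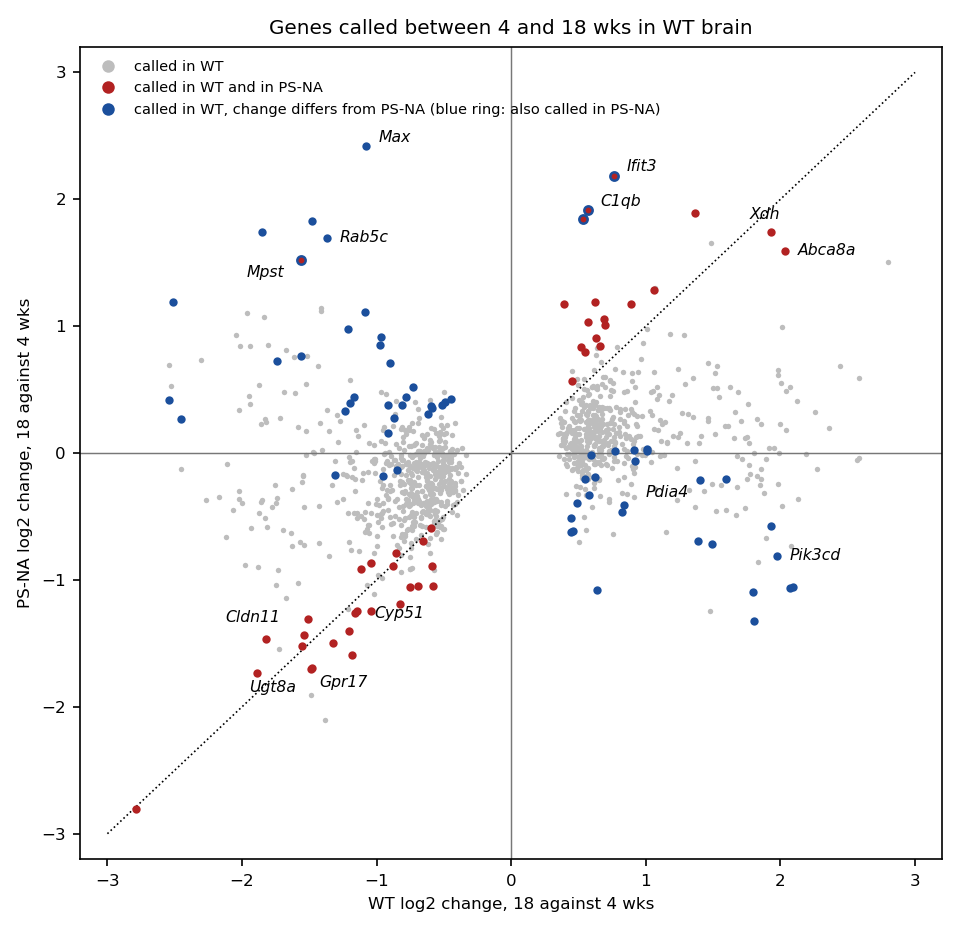
Log2 change from 4 to 18 wks in PS-NA brain (vertical) against that in WT brain (horizontal) for the 1167 genes that passed in WT. Red points passed in both genotypes, blue points had a change that differed between them, a blue ring marks genes of both kinds, and the dotted line marks equal change. Ugt8a, Cldn11 and Gpr17 lie near the line, C1qb and Ifit3 above it, and Mpst in the upper left quadrant with -1.56 in WT and 1.52 in PS-NA.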

How the data were processed

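RNA pools of 3 mice were hybridized to arrays of 45101 probe sets. The deposited intensities are linear signals from GCOS (1.1 per the submitters' processing notes), which the authors set on every array to a mean of 1500 over all but the top and bottom 2%. Probe-level data were not used here, so the RMA step of the methods was not repeated. Signals plus 16 were taken to log2 and quantile normalized over the 68 arrays, and 64 control probe sets were left out. The other 45037 were all tested, dim ones included.

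Linear models were fitted in limma 3.58.1 (statmod 1.5.0, R 4.3.3). The 12 WT arrays were fitted with age and region (8 residual degrees of freedom), or with a mean for each region and age to test within and between regions (6 degrees). Moderated tests used an intensity trend, p was adjusted across all probe sets (Benjamini-Hochberg), and results passed at an adjusted p under 0.05. All adjusted p-values and SEs in the text are from limma. PS-NA arrays had a fit of their own, and the difference between WT and PS-NA changes came from a fit of all 24 arrays. Fold changes on the log2(signal + 16) scale understate those of dim genes. The number of arrays limits the precision. The mixed model of the methods was approached by a random subject and by an unmoderated model, both as alternatives.

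By the platform annotation 34958 probe sets have 1 gene symbol (34754 updated by gene ID), 932 several and 9211 none. The first measure 18193 genes, each taken by its brightest probe set in WT (highest mean log2 signal). The members, the 37 gene lists (823 entries, 742 measured) and the comparisons were chosen with earlier results of these data known. The genes named were the 15 that rose most and the 15 that fell most without overlap of pools in either region, predicted, RIKEN and EST names left out. To these were added the 4 members of a list with the lowest p and all that passed, the 6 lowest p of the region difference, and the 4 largest changes each way from 4 to 12 and 12 to 18 wks. Genes outside this rule are said to be chosen after their values were seen. Mbp, Pdgfra, Srebf2 and Fdft1 were given as known markers or enzymes and a regulator. The steps were tested on simulated data. Alternatives were other normalizations, offsets, filters, spreads, blocks and probe set rules, and each pool left out. Those on Xist, on RNA quality and on the difference from PS-NA were added after seeing the data.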

Additional observations from a re-analysis of the deposited data

Results flagged for a closer look

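The change from 4 to 18 wks differed between WT and PS-NA brain for 111 genes by the test of the difference itself, and 10 genes named in the report are among them. The WT change was lower for C1qa (difference -1.31 on the log2 scale), C1qb (-1.35), Ifit3 (-1.43), Mpst (-3.08) and the dim gene Tssk1 (-3.70). It was higher for Pdia4 (1.62), Hapln4 (0.99), Slc2a1 (0.88), Pik3cd (2.79) and the dim gene Kcnj2 (3.13). Without both WT replicate 2 pools of 4 wks the direction held for all 10 genes and Mpst alone passed. The Pik3cd value rests on 1 of its 6 probe sets. Groups of 2 pools were too small to test for single pools far from the others.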

How the results depend on the processing

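Counts are probe sets at an adjusted p under 0.05, and where they moved over 1.5 times the cause was not tested. For 4 to 18 wks (3322) no intensity trend gave 1607, an unmoderated model 1902, the spread of all 68 arrays 1800, the actin 3′ to 5′ ratio as a covariate 1179, the Xist level as a covariate 382, leaving out both 4 wks pools lowest in Xist 757 and leaving out both highest 1704. For 4 to 12 wks (2717) no trend gave 803, no moderation 836, 68 arrays 1453, the Xist level 1463 and leaving out the low pools 293, and median centring gave 2311 higher and 657 lower against 1559 and 1158. For 12 to 18 wks (73) no trend gave 2, no moderation 0, 68 arrays 6, 24 WT arrays 37, leaving out dim probe sets 111, array weights 370, a mean for each region and age 132 and leaving out the low pools 17. In cerebella (323, 182 higher and 141 lower) no trend gave 0, no moderation 9, 68 arrays 71, 24 arrays 150, leaving out dim probe sets 582, weights 822, leaving out the low pools 25, and median centring 194 higher and 67 lower. In cerebra (2370) no trend gave 180, no moderation 122, 68 arrays 702, 24 arrays 1274 and leaving out the low pools 76. The region difference (0) became 1 with only the arrays of 4 and 18 wks. In PS-NA (188) no trend gave 49 and no moderation 55, and for the difference from PS-NA (417) these gave 124 and 166, medians 217, weights 838, a random subject 264 and leaving out the low WT pools 56.

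With the replicate number as a block, counts were 3613 for 4 to 18 wks, 3129 for 4 to 12 wks, 133 for 12 to 18 wks, 505 in cerebella, 3307 in cerebra, 1 for the region difference, 245 in PS-NA and 561 for the difference from PS-NA. The deviations of same-numbered pools correlated at -0.088 to 0.056 between groups, with none over 0.1, and the numbers were not taken as pairs. Low correlations of this kind cannot exclude shared mice, so the tests may count the same mice in both regions as separate pools. The correlations between the regions of 1 age were 0.043, 0.054 and 0.056. Xist was higher in the same replicate number in both regions at each age, and whether regions share mice was not tested. A random subject for each genotype, age and number gave 3150 between 4 and 18 wks.

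Leaving out 1 array gave 1692 to 3528 for 4 to 18 wks, 951 to 3683 for 4 to 12 wks, 9 to 654 for 12 to 18 wks, 18 to 393 in cerebella, 173 to 2717 in cerebra, 0 to 1 (without cerebral replicate 1 of 4 wks, for 1) for the region difference, 81 to 211 in PS-NA and 141 to 575 for the difference from PS-NA. The arrays that moved 4 to 18 wks over 1.5 times are given with that count. For 4 to 12 wks they were cerebellar replicate 2 (1375) and cerebral replicates 1 and 2 of 4 wks (1768 and 1226), and replicate 1 of cerebella (951) and cerebra (1344) of 12 wks. For 12 to 18 wks they were cerebellar replicate 2 (43) and cerebral replicate 1 (23) of 4 wks, cerebellar (13 and 14) and cerebral (10 and 654) replicates 1 and 2 of 12 wks, and cerebellar replicates 1 and 2 (10 and 37) and cerebral replicate 2 (9) of 18 wks. In cerebella they were replicates 1 and 2 of 4 wks (62 and 90) and of 18 wks (18 and 27), and cerebral replicates 1 and 2 of 4 wks (164 and 171), which enter its spread. In cerebra they were replicates 1 and 2 of 4 wks (721 and 173) and of 18 wks (321 and 1292). In PS-NA they were cerebellar (100 and 87) and cerebral (101 and 101) replicates 1 and 2 of 4 wks, cerebellar replicates 1 and 2 (81 and 116) and cerebral replicate 1 (111) of 18 wks. For the difference from PS-NA they were, in WT, cerebellar replicate 2 (220) and cerebral replicates 1 and 2 (250 and 185) of 4 wks, cerebellar replicates 1 and 2 (212 and 210) and cerebral replicate 2 (141) of 18 wks, and in PS-NA cerebellar replicate 2 (248) and cerebral replicates 1 and 2 (213 and 164) of 4 wks and cerebral replicate 1 of 18 wks (163).

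Of 169 named results that passed, 37 also did in every alternative other than the Xist covariate and leaving out the low pools. In the latter 113 of 179 named results were no longer called. As the mean of all probe sets the direction turned for Ccr2 (-0.037), Ebf1 (-0.050), Herc6 (0.21), Hspg2 (0.071), Ncam1 (-0.052), Nr1d2 (0.18), Pcdh7 (0.087), Sox4 (0.017), Syp (-0.23), Pdgfra (0.33) and Fdft1 (0.0068, and 0.14 to 12 wks). Pdgfra was also above 0 with medians (0.023) and without both pools highest in Xist (0.024), and leaving out 1 array gave -0.13 to 0.036 for it. Xist with its own level as a covariate is 0 by construction. Signals near background limit the dim genes, and 2 pools a group limit tests within regions.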
